A study of Mus musculus with 4 samples.

Results

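Notch and satellite cell genes are described here through the places where the chromatin protein PHF2 was found near them in mouse calf muscle. The set holds 10 genes, listed by symbol, among 21883 protein-coding genes that RefSeq places on the chromosomes of GRCm38.p6, which mm10 coordinates follow: the receptor genes Notch1, Notch2 and Notch3, the effector genes Hes1, Hey1 and Heyl, the nuclear factor gene Rbpj, and the satellite cell genes Pax7, Cxcr4 and Calcr. The genes were chosen by their function and with the PHF2 peaks of these libraries in view, that is, with the presence and fold enrichment of peaks known. The number of genes that carry a peak is therefore a description and was given no test. Each gene was taken as its annotated body plus 5 kb on each side, and a peak counted when at least 1 bp of it lay in that window.

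Notch receptors are cell surface proteins that are cut when a neighbouring cell presents a Delta or Jagged ligand. The freed intracellular part enters the nucleus, binds the DNA-binding protein RBPJ together with a Mastermind coactivator, and turns on Hes and Hey genes, whose products are transcriptional repressors. Without that signal RBPJ works with corepressors. In skeletal muscle the pathway is known for keeping satellite cells, the stem cells that lie against the fibres and are marked by the transcription factor PAX7, in a quiescent state.

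The study had 4 libraries, 1 per group. KO muscle came from Phf2 flox/flox mice with Acta1 Cre, and Ctrl muscle from Phf2 flox/flox mice without Cre. Each was profiled by CUT&RUN, where a nuclease tethered by an antibody frees the DNA next to the antibody's target, with PHF2 antibody or with IgG as the background. All mice were 4-week-old C57BL/6 males and the tissue was gastrocnemius, a calf muscle; how many animals went into a library is not given in the sources used here. Acta1 Cre acts in muscle fibres, so floxed Phf2 is not its target in satellite cells, vessel cells or other cells of the tissue, and whole muscle gives no means to tell which cell type a peak came from. A weaker peak from fewer cells of a type cannot be told apart from less PHF2 per cell.

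The authors' lists held 161 peaks for KO PHF2, 1621 for Ctrl PHF2, 152 for KO IgG and 77 for Ctrl IgG. With 1 library per group there was no replicate and no test across samples, so every comparison is between these libraries and every interval covers counting error only. Read totals are unknown, but tags at each PHF2 summit were recovered as whole numbers, and the values put the KO PHF2 library at 1.01 times the size of the Ctrl PHF2 library. Phf2 itself (Gene ID 18676, chromosome 13, 48801750 to 48870885) held 0 peaks in KO PHF2, 0 in Ctrl PHF2, 1 in KO IgG and 0 in Ctrl IgG, and peak lists do not check its deletion. For comparison, 0.713% of all protein-coding genes had a KO PHF2 peak and 7.38% a Ctrl PHF2 peak by the same rule. Of the 1615 genes with a Ctrl PHF2 peak, 126 (7.80%) also had a KO PHF2 peak. Of 17 fibre markers, 0 had a KO PHF2 peak and 7 had a Ctrl PHF2 peak, among them Des, Myot, Myf6, Casq1 and Ttn. Of 12 endothelial markers 0 and 2 had one in these lists, of 9 pericyte and smooth muscle markers 0 and 1, of 9 fibro-adipogenic markers 0 and 0, and of 8 immune markers 0 and 1.

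PHF2 peaks lay at 4 of the 10 genes. Notch1 and Hes1 had peaks in both the KO and the Ctrl PHF2 list, Rbpj and Cxcr4 had a peak in the Ctrl PHF2 list alone, and Notch2, Notch3, Hey1, Heyl, Pax7 and Calcr had none in any list. In numbers, 2 genes had a KO PHF2 peak, where 0.713% of all protein-coding genes did by the same rule. A Ctrl PHF2 peak was found at 4, where 7.38% of all genes had one. Both kinds of peak were found at 2 genes (0.576% of all genes), a Ctrl without a KO peak at 2 (6.8%), and a KO without a Ctrl peak at 0 (0.137%). No gene of the set had a KO IgG peak (0.155% of all genes) or a Ctrl IgG peak (0.064%). Since the set was drawn up with these lists in view, nothing is read from the counts.

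**Figure D1:**
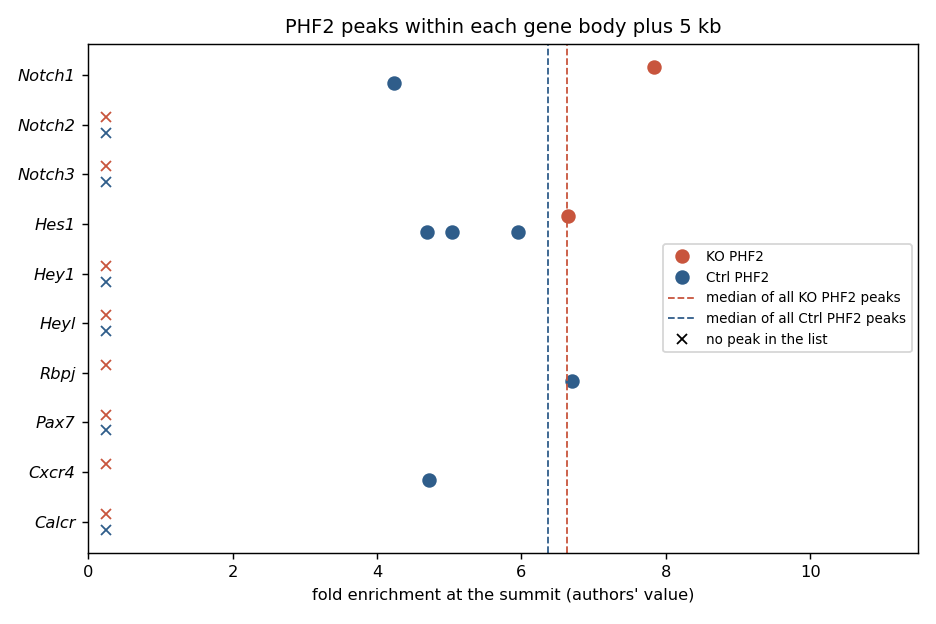
Fold enrichment at the summit, on the horizontal axis, of each PHF2 peak at the 10 genes, with KO PHF2 in red above Ctrl PHF2 in blue and crosses for genes with no peak in that list. The KO peak at Notch1 (7.84) lies above the KO median of 6.64, while the Ctrl peaks at Notch1, Hes1 and Cxcr4 lie below the Ctrl median of 6.37.

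Notch1 (Gene ID 18128, chromosome 2, 26457902 to 26503822, minus strand), which encodes a receptor that satellite cells and endothelium share, had 1 peak in each PHF2 list. The KO PHF2 peak ran from 26503124 to 26503788 and was 665 bp wide, with a fold enrichment of 7.84, a -log10 p of 10.9 and a summit at 26503385. The Ctrl PHF2 peak ran from 26502913 to 26503274 and was 362 bp wide, with a fold enrichment of 4.23, a -log10 p of 5.86 and a summit at 26503139. Both peaks lay inside the first kilobase of the gene. The KO summit was 437 bp and the Ctrl summit 683 bp downstream of the annotated start, 246 bp apart, and the peaks shared 151 bp. The KO peak came to within 34 bp of the start and the Ctrl peak to within 548 bp. A long noncoding RNA gene, Gm35978, has its lower-coordinate end 105 bp beyond the same end of Notch1, and no PHF2 peak reached it.

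The fold enrichment at Notch1 was thus 1.85 times as high in KO as in Ctrl muscle, while the tags were equal: 18 at the KO summit (exact Poisson interval 10.7 to 28.4) and 18 at the Ctrl summit (10.7 to 28.4). The fold enrichment is the scaled pileup plus 1 over the local background plus 1. The scaled pileups were 10.96 in KO and 11.7 in Ctrl, and the backgrounds 0.526 in KO and 2.0 in Ctrl, so the values differ through the denominator. The control library behind each background is not stated and may differ between KO and Ctrl, and the backgrounds, this ratio of 1.85 and the tags needed that are derived from them all rest on it. A background of 2.0 was high for the Ctrl list, where 94.6% of peaks had a lower one (median 0.584). In the KO list 68.3% of peaks had a background below that of the Notch1 peak (median 0.380). The ratio of fold enrichments at Notch1 was the highest of all 114 Ctrl PHF2 peaks that overlap a KO PHF2 peak, over which the median ratio was 0.908. Intervals were worked out for tags and not for backgrounds, so this ratio and its rank have none. By tags, Notch1 was 1 of 5 such peaks with the same number in both libraries, beside 15 with more in KO and 94 with fewer, and the median ratio of tags was 0.725. Within its own list the KO peak ranked 28 of 161 by fold enrichment and the Ctrl peak 1574 of 1621. By tags the KO peak ranked 34 of 161 and the Ctrl peak 426 of 1621. By fold enrichment alone, then, Notch1 carried a rather strong KO peak and one of the weaker Ctrl peaks, on the same number of tags.

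**Figure D2:**
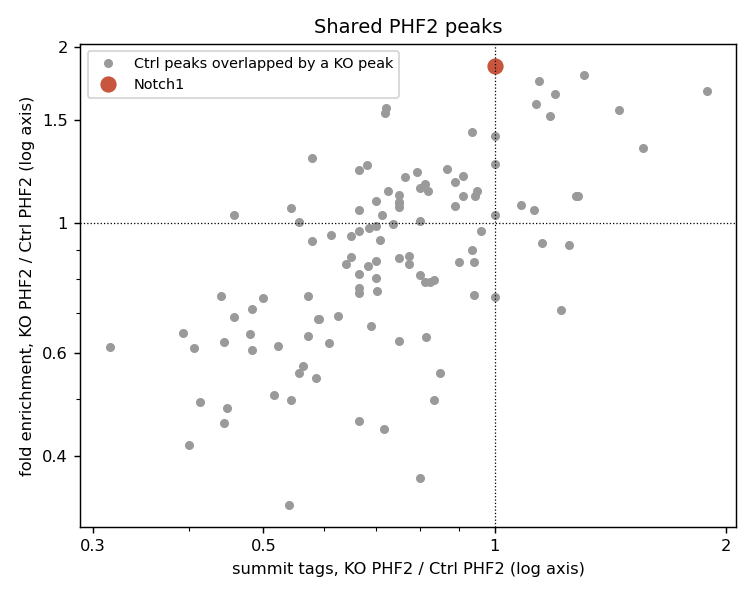
Each of the 114 Ctrl PHF2 peaks overlapped by a KO PHF2 peak, by the ratio of summit tags (horizontal, KO over Ctrl, log axis) and of fold enrichment (vertical, KO over Ctrl, log axis). Notch1, in red, sits at a tag ratio of 1 and at the highest fold ratio, 1.85.

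Notch2 (Gene ID 18129, chromosome 3, 98013538 to 98150367) and Notch3 (Gene ID 18131, chromosome 17, 32120820 to 32166896) encode the other Notch receptors of satellite cells, and NOTCH3 is also known from pericytes and vascular smooth muscle. Neither had a peak in the KO PHF2, Ctrl PHF2, KO IgG or Ctrl IgG list. Their bodies were 136.8 kb and 46.1 kb long, against 45.9 kb for Notch1, whose peaks lay in its first kilobase. A part of gene length in these absences was not tested. The nearest KO PHF2 peaks were 2354 kb from Notch2 and 5612 kb from Notch3. The nearest Ctrl PHF2 peak to Notch2 was 189 kb away, in Pde4dip. Notch4, the endothelial receptor, which belongs to a separate list below, had none either.

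The start regions of the genes are shown for their CG dinucleotides, since PHF2 is known to bind histone H3 trimethylated at lysine 4, a mark of CG-rich promoters. The windows run from 250 bases before the start to 50 after it, in the RefSeq table for GRCm38.p6, 5′ to 3′ on the strand of the gene, with capitals at each CG. Of the 10 genes 7 were matched there, and Hes1, Hey1 and Heyl were not. The first 3 lines are genes with a PHF2 peak near this start, and the last 2, Notch2 and Pax7, are genes with none:
Notch1, chr2:26503773-26504072, minus strand: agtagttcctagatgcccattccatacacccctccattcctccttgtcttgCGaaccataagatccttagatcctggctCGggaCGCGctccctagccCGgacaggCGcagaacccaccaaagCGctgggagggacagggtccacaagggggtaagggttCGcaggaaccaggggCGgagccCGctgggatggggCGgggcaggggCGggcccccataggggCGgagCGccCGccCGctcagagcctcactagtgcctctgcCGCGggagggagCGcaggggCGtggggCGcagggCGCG
Rbpj, chr5:53590096-53590395, plus strand: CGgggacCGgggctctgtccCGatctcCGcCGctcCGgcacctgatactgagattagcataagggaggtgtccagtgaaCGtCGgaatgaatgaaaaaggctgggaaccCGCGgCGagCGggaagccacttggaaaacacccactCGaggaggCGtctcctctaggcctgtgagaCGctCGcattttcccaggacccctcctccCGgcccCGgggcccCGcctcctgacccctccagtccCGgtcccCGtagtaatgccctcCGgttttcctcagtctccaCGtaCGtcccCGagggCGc
Cxcr4, chr1:128592250-128592549, minus strand: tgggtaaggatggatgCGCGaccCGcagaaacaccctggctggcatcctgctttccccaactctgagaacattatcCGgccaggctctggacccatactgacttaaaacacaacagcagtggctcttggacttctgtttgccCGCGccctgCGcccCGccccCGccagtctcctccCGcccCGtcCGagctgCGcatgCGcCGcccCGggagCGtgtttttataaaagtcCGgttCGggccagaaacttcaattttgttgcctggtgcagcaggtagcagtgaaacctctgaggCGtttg
Notch2, chr3:98013288-98013587, plus strand: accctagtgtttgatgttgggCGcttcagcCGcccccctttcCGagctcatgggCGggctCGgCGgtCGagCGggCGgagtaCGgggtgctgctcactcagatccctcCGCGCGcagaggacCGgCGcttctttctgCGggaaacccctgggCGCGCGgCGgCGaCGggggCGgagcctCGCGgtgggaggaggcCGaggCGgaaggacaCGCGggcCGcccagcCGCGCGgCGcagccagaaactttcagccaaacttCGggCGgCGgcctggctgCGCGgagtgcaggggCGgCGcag
Pax7, chr4:139832919-139833218, minus strand: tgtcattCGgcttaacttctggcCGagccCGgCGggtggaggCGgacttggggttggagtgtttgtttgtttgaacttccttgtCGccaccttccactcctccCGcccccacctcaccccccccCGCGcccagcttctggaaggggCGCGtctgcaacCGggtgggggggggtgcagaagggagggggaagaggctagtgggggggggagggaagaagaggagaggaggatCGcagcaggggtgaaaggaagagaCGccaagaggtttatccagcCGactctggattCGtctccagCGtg

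Notch1 had 23 CG dinucleotides in this window, Rbpj 26 and Cxcr4 20, against 41 in Notch2 and 17 in Pax7. Notch3 had 25, and the 2 annotated starts of Calcr 29 and 4. Over all protein-coding genes, windows of genes with a Ctrl PHF2 peak had a median of 24 CG dinucleotides and 64.0% G+C, and windows of genes with none had 12 and 55.7%. Among genes of the set without a peak, Notch2 had more CG dinucleotides than 95.5% of all windows, Notch3 more than 75.2%, Pax7 more than 57.3%, and the starts of Calcr more than 82.8% and 23.9%. Hey1 and Heyl could not be placed on this scale. The peaks themselves lay mostly outside these windows. The KO PHF2 peak at Notch1 covered the last 16 bases of the window printed above, the Ctrl PHF2 peak at Notch1 none, and the peaks at Rbpj and Cxcr4 none.

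Hes1 (Gene ID 15205, chromosome 16, 30065357 to 30067796) encodes a helix-loop-helix repressor and is the best known direct target of Notch signalling. At 2.44 kb it is the shortest gene of the set, and it had the most peaks. The single KO PHF2 peak ran from 30065671 to 30065993, was 323 bp wide and had a fold enrichment of 6.64, with a summit at 30065837 and 15 tags (8.40 to 24.7). The Ctrl PHF2 list held 3 peaks. The first, from 30064114 to 30064446, lay outside the gene, with a fold enrichment of 4.69 and 12 tags (6.20 to 21.0). The second, from 30065216 to 30065649, spanned the lower-coordinate end of the gene, with a fold enrichment of 5.05 and 14 tags (7.65 to 23.5). The third, from 30066296 to 30067244, was inside the gene and at 949 bp the widest peak of the set, with a fold enrichment of 5.95 and 21 tags (13.0 to 32.1).

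The KO peak at Hes1 overlapped none of the 3 Ctrl peaks. It lay in the space between the second and the third. It was 21 bp from the second, with the summits 355 bp apart, and 302 bp from the third, with the summits 746 bp apart. Hes1 therefore counts as a gene with peaks in both libraries while its KO peak counts as a site with no Ctrl peak. Of the 39 KO PHF2 peaks that overlap no Ctrl PHF2 peak, 13 had a Ctrl PHF2 peak within 1 kb, and the Hes1 peak is 1 of these. The tag intervals of the KO peak and of each Ctrl peak overlap. The gene table gives no strand for Hes1, so its peaks are placed by the lower-coordinate end: the KO summit was 480 bp above it, and the Ctrl summits 990 bp below it, 125 bp above it and 1226 bp above it.

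Hey1 (Gene ID 15213, chromosome 3, 8663359 to 8667038) and Heyl (Gene ID 56198, chromosome 4, 123233556 to 123249870), which encode repressors related to HES1 that are expressed in satellite cells under Notch control, had 0 peaks in each of the 4 lists. For Hey1 the nearest KO PHF2 peak was 28973 kb and the nearest Ctrl PHF2 peak 1166 kb away. For Heyl the nearest KO PHF2 peak was 9761 kb away and the nearest Ctrl PHF2 peak 414 kb, in the cytoskeletal gene Macf1. Among the 3 effector genes PHF2 peaks were thus found at Hes1 only.

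**Figure D3:**
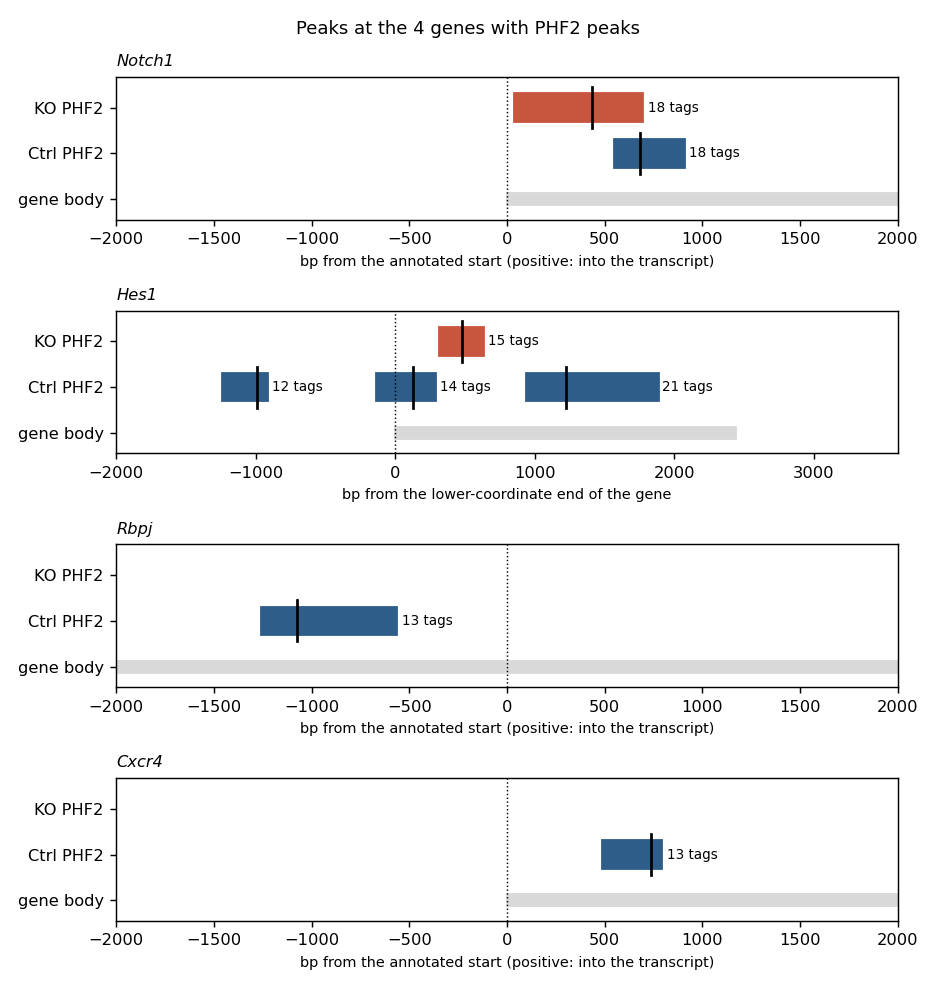
Peaks at Notch1, Hes1, Rbpj and Cxcr4 as bars, KO PHF2 in red above Ctrl PHF2 in blue and the gene body in grey, by distance in bp from the nearest annotated start (Hes1: from the lower-coordinate gene end); black ticks are summits. The Notch1 peaks overlap by 151 bp, the Hes1 KO peak falls between Ctrl peaks, and Rbpj and Cxcr4 have a Ctrl peak alone.

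Rbpj (Gene ID 19664, chromosome 5, 53555779 to 53657445) encodes the DNA-binding partner of all Notch receptors. It had 0 KO PHF2 peaks and 1 Ctrl PHF2 peak, from 53589089 to 53589784, 696 bp wide, with a fold enrichment of 6.70, a -log10 p of 9.22 and 13 tags at its summit at 53589270 (6.92 to 22.2). This was the highest fold enrichment of a Ctrl peak in the set and ranked 684 of 1621. The summit lay 33491 bp inside the annotated body but 1076 bp upstream of the nearer of 2 internal starts, at 53590346, and the peak ended 562 bp before that start. Its local background was 0.409.

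RBPJ protein recognises DNA with the core TGGGAA. In the 300-base window at the start next to the Ctrl peak this word occurs 2 times counting both strands, 149 and 65 bases before the start, as the following stretch shows with the matches in capitals (the second reads as its reverse complement, TTCCCA):
Rbpj, chr5:53590190-53590293, plus strand: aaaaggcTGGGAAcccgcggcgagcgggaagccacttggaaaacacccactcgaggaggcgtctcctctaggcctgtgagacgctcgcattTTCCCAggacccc
The word does not overlap itself, and 24.5% of all protein-coding windows hold it at least 1 time; it is absent from the windows of Notch1, Notch2, Notch3, Pax7, Cxcr4 and Calcr. A match in these letters is a description and not a binding site, and it lies outside the peak.

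Cxcr4 (Gene ID 12767, chromosome 1, 128588199 to 128592299) encodes the receptor for the chemokine CXCL12, which satellite cells use in migration, and is also expressed in endothelial and blood cells. It had 0 KO PHF2 peaks and 1 Ctrl PHF2 peak, from 128591506 to 128591812. At 307 bp it was the narrowest peak of the set, with a fold enrichment of 4.72, a -log10 p of 5.95 and 13 tags at its summit at 128591561 (6.92 to 22.2). The summit lay 738 bp downstream of the annotated start. Its local background was 1.0, so the same 13 tags as at Rbpj gave a lower fold enrichment.

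Pax7 (Gene ID 18509, chromosome 4, 139737059 to 139833530), the defining transcription factor gene of satellite cells, had 0 peaks in the KO PHF2, Ctrl PHF2, KO IgG and Ctrl IgG lists over its 96.5 kb. The nearest KO PHF2 peak was 5984 kb and the nearest Ctrl PHF2 peak 544 kb away, in the actin capping gene Capzb. Calcr (Gene ID 12311, chromosome 6, 3685678 to 3764713), the calcitonin receptor gene, which marks quiescent satellite cells, had 0 peaks in each list as well. Its body also holds the microRNA genes Mir489 and Mir653, the first known for a part in satellite cell quiescence in mouse, and neither had a peak. The nearest KO PHF2 peak was 43690 kb and the nearest Ctrl PHF2 peak 10990 kb from Calcr. Of the 3 satellite cell genes, then, the defining markers Pax7 and Calcr had no PHF2 peak in either genotype, and Cxcr4 had a weak one in Ctrl.

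Whether a Ctrl peak would have been seen in the KO list depends on its strength. The lowest -log10 p was 6.19 in the KO PHF2 list and 4.73 in the Ctrl PHF2 list. Both are the lowest values seen, and the limit set at peak calling is not given. Tags needed are therefore the tags that would reach 6.19. Of the 6 Ctrl peaks at the set, 3 reached 6.19: the second and the third at Hes1 and the peak at Rbpj. The peaks at Notch1 and Cxcr4 and the first at Hes1 did not. At the scaling of the KO library, the tags needed for 6.19 were 10 at its genome-wide background of 0.343 but more where the background was that of the Ctrl peak. At Rbpj 10 tags were needed, against 13 in Ctrl. At Cxcr4 15 were needed, against 13 in Ctrl. The first Hes1 peak needed 14 and had 12, the second needed 15 and had 14, and the third needed 17 and had 21. The Notch1 peak needed 20 and had 18, while the KO peak there had 18 tags at a background of 0.526. In all, 4 of the 6 Ctrl peaks had fewer tags than a KO peak would have needed at the Ctrl background. Each of the 6 had more than the 10 needed at the KO genome-wide background. The KO peaks at Notch1 and Hes1 both had a background of 0.526. The Ctrl peaks had 2.0 at Notch1 and 0.876 to 1.46 at Hes1. Tags needed at 0.526 were not worked out, so the count of 4 does not tell which peaks would have entered the KO list. The KO background at Rbpj and Cxcr4 is not known. At Rbpj the 13 Ctrl tags exceeded the 10 needed at either background, but their interval of 6.92 to 22.2 reached below 10. Over all shared peaks the median ratio of KO to Ctrl tags was 0.725. The count of 13 therefore does not settle whether the same site would have entered the KO list. At Cxcr4 the 13 Ctrl tags exceeded the 10 needed at the KO genome-wide background but not the 15 needed at the Ctrl background, so whether an equal peak would have entered the KO list there cannot be told.

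**Figure D4:**
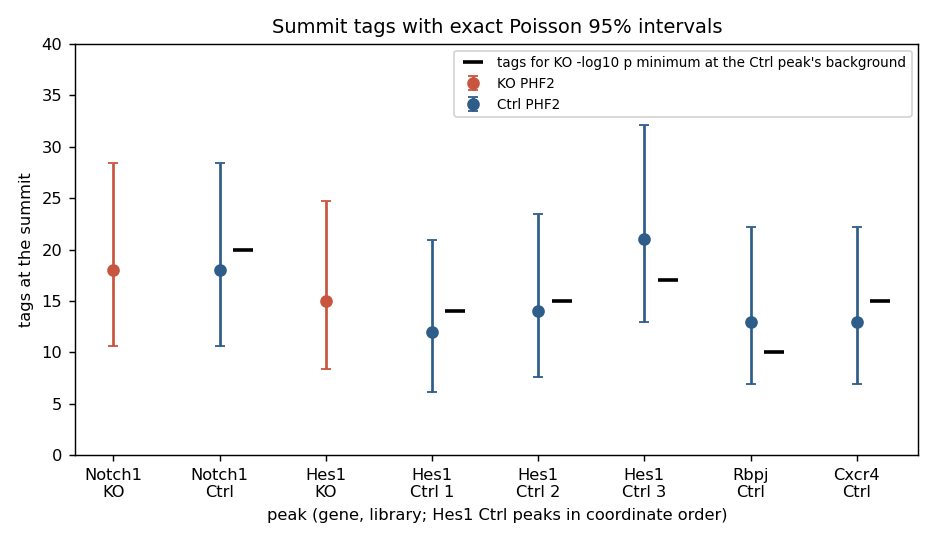
Tags at the summit of each PHF2 peak at the set, with exact Poisson 95% intervals, KO PHF2 in red and Ctrl PHF2 in blue; black dashes are the tags that the KO library would have needed to reach its weakest -log10 p at the background of that Ctrl peak. The Rbpj peak and the third Hes1 peak lie above their dash and the other 4 Ctrl peaks below it. The background at the KO peaks of Notch1 and Hes1, 0.526, was lower than at the Ctrl peaks of these genes.

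None of the 4 peaks at Notch1, Rbpj and Cxcr4 covered an annotated start of its gene. The peaks at Hes1 are left out here, since its strand was not given. The second Ctrl peak there spanned the lower-coordinate end of Hes1, which would be its start on the plus strand. Of KO PHF2 peaks with a protein-coding start within 5 kb of the summit, 19.5% covered a start (22 of 113) and the median distance of the summit was 538 bp. Of such Ctrl PHF2 peaks 41.2% covered one (494 of 1199) and the median was 307 bp. Summits lay downstream of the start in 86.7% of KO and 78.2% of Ctrl peaks, as at Notch1 and Cxcr4 but not at Rbpj. With 4 peaks this is a description only.

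Beyond the set, 49 other genes of the Notch pathway were looked up by function in lists drawn up with earlier results of these data known. None had a KO PHF2 peak, where 0.713% of all genes did. A Ctrl PHF2 peak was found at 16 of 49, where 7.38% of all genes had one. These 16 genes held 21 Ctrl peaks with a median fold enrichment of 5.70 (range 4.55 to 7.64), 315 to 1472 bp wide and with 8 to 22 tags. Of 19 peaks with an annotated start in the table, 14 had the summit within 1 kb of it. The 10 genes of the set themselves held 6 Ctrl peaks with a median fold enrichment of 4.88 (4.23 to 6.70).

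Ligand genes had a Ctrl peak in 2 of 6: Jag1, with peaks of 1472 bp (fold enrichment 5.70) and 1024 bp (7.32, with 21 tags, across its start), and Dll1, with peaks of 568 and 1237 bp (5.70 both). Dll3, Dll4, Jag2 and Dlk1 had none. Among the other receptors and effectors 1 of 6 had one, Hes7 (5.38). Genes for cutting, glycosylation and maturation of the receptor had 2 of 14: Adam10 (5.37), the protease that cuts ligand-bound receptor, and Furin (4.63). Inhibitors of the pathway had 2 of 11: Numb (7.41), an endocytic adaptor that antagonises Notch, and the ubiquitin ligase gene Itch (7.02).

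Nuclear partners of RBPJ were the list with the highest share of genes with a Ctrl PHF2 peak, 9 of 12, where 7.38% of all genes had one. The lists were drawn up with earlier results of these data known, so nothing is read from this order. Gene length, which sets the width of the window, was not taken into account. All 3 Mastermind coactivator genes had a Ctrl PHF2 peak: Maml3 (fold enrichment 6.61 and 5.73), Maml2 (6.34) and Maml1 (5.05). The Groucho-type corepressor genes Tle1 (7.64 and 5.37) and Tle3 (7.16 and 7.62) had 2 peaks each. The corepressor gene Ncor1 (5.05) tied with Maml1. Tle4 (4.65), the acetyltransferase gene Ep300 (4.66) and the H3K4 demethylase gene Kdm5a (4.55), named after their values were seen, complete the 9. Many of these factors serve other transcription factors besides RBPJ, and none had a KO PHF2 peak, where 0.713% of all genes did. Of all genes with a Ctrl PHF2 peak, 7.80% also had a KO PHF2 peak.

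Of 20 other satellite cell genes, 1 had a KO PHF2 peak, where 0.713% of all genes did, and 3 had a Ctrl PHF2 peak, where 7.38% did. The gene in both was Spry1, which encodes a feedback inhibitor of growth factor signalling that satellite cells use to return to quiescence. Its KO peak was 1092 bp wide with a fold enrichment of 8.45 and 17 tags (9.90 to 27.2), and its Ctrl peak 993 bp wide with 9.65 and 22 tags (13.8 to 33.3). The peaks shared 979 bp, so here, unlike at Notch1, they covered nearly the same stretch. Their summits did not coincide: the KO summit lay 164 bp and the Ctrl summit 773 bp downstream of the start. That is farther apart than the 246 bp between the summits at Notch1. The background was 0.343 in KO and 0.584 in Ctrl. Fgfr1 (5.79 and 5.25), a fibroblast growth factor receptor gene, and Cav1 (5.37), the caveolin gene, had Ctrl peaks alone. Satellite cell genes such as Myf5, Pax3, Cdh15, Itga7, Vcam1, Megf10 and Met had none in either list. The cells in which any of these peaks arose were not identified.

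**Figure D5:**
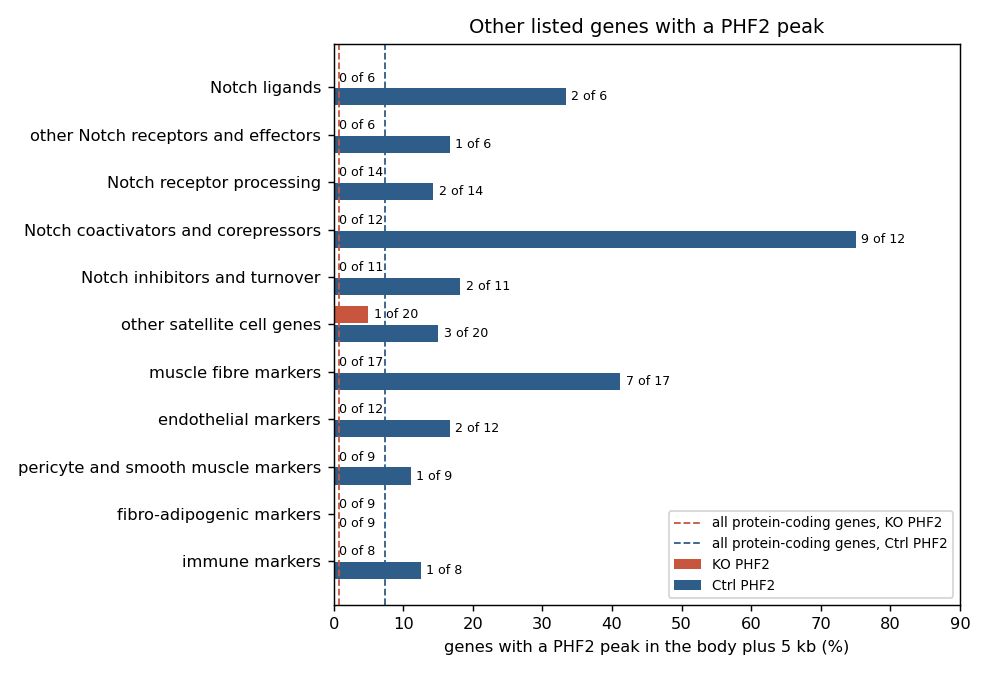
Share of genes in each further list with a KO PHF2 peak (red) or a Ctrl PHF2 peak (blue) in the body plus 5 kb, with counts beside the bars and dashed lines for all protein-coding genes (0.713% and 7.38%). Spry1 gives the 1 KO bar, and the RBPJ coactivators and corepressors the longest Ctrl bar, 9 of 12; Des is in both the fibre and the pericyte and smooth muscle lists.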

How the data were processed

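Peak lists of 4 CUT&RUN libraries were analysed, grouped by sample title, 1 per group. Reads were aligned with Bowtie2 to mm10 and peaks called with MACS2, per the submitters' processing notes; for versions, settings, duplicates and control library the sources used here give nothing. Each deposited list has 10 columns in narrowPeak layout. Column 7 holds the fold enrichment, a ratio to local background that the authors deposited for each summit. The deposited -log10 p and -log10 q test that same enrichment, and the deposited score repeats the -log10 q and was not used. These values served to describe and rank peaks within a list.

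Starts were written 1-based. Genes, starts and sequences came from RefSeq tables of GRCm38.p6, which matched all 10 genes and all 124 other list entries. Summit tags were solved from fold, as (pileup + 1) / (background + 1), and a Poisson p: every PHF2 peak gave a whole number within 0.005 after division by 0.609 in KO (84 distinct pairs of values) and 0.649 in Ctrl (309), while factors that are no simple fraction of these made at most 38.1% and 36.2% whole. The method was tested on simulated data. The ratio of library sizes assumes equal fragment length. Poisson intervals (95%) are exact. Members and lists were chosen with earlier results of these data known. Named genes were all members, every listed gene with a KO PHF2 peak and up to 5 per list by Ctrl fold enrichment. Some further genes are not reported here. Alternatives were other windows, the summit alone, stricter thresholds, merged peaks, other overlap rules and a Ctrl list shortened to 161 peaks. Scripts ran in Python 3.11.15 with SciPy 1.17.1, NumPy 2.4.6 and pandas 2.3.3, and figures in matplotlib 3.10.9.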

Additional observations from a re-analysis of the deposited data

How the results depend on the processing

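Of 78 alternatives, 60 stayed within 1.5 times the main count and 18 moved. Windows of 0, 1 and 10 kb and the summit rule left the same members in each list. With a -log10 q of at least 3, and with the lowest KO PHF2 -log10 p as a common limit, the set kept 3 of 6 Ctrl PHF2 peaks, 0 of them overlapped by a KO peak, and 2 genes with a Ctrl peak, Hes1 and Rbpj: 1 also with a KO peak and 1 without. Limiting the Ctrl list to the length of the KO list left 0 Ctrl peaks at the set, 0 overlapped ones and 0 genes with a Ctrl peak, with or without a KO peak. The number of Ctrl peaks overlapped by a KO peak, 1 as reported, became 2 with merged peaks, 0 with a reciprocal overlap of 50% and 3 when peaks within 1 kb counted as shared. The alternatives for the other Notch and satellite cell lists were chosen after seeing the data. Leaving out a library was not possible. No paired analysis was possible because there was 1 library per group. The cause of these shifts was not tested beyond the number of peaks each rule leaves.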
